A study of Colocasia esculenta with 9 samples.

Results

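Neighbouring gene models that lie close together on the same strand were described in leaves of taro (Colocasia esculenta), an aroid grown for its corm and leaves. The gene models of the annotation were sorted by scaffold and start, and consecutive models that do not overlap, lie on the same strand and leave a gap of at most 1000 bp were taken as close pairs. There were 2285 close pairs among 45445 adjacent pairs, and they held 4363 of the 57034 gene models. The comparison set was the 16267 same-strand pairs with a gap over 5000 bp, called far pairs. A further 4498 same-strand pairs lay between these limits, and 1253 pairs on opposite strands had a gap of at most 1000 bp. Of the 2060 adjacent pairs that overlap from first to last exon, 0 were on the same strand.

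Leaf RNA of 3 cultivars was sequenced, with 3 libraries each of Sam-07 (also called Samasama), Palau 10 (Ngerruuch) and Niue. All plants were untreated and vegetative, started as tissue culture plantlets and reached 8 months in potting mix at 27 °C, 85% humidity and a 12 h photoperiod. RNA came from 4 g of the youngest 2 leaves of each sample by the CTAB method and was dried for 40 h before shipping. Stranded TruSeq libraries were made from it. Whether the libraries of a cultivar came from separate plants is not stated in the labels, so the p-values describe the spread among these samples only, and part of that spread may be technical.

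Close neighbours on 1 strand can have several origins. A long gene can be cut into separate models when an intron, an assembly error or a gap in the evidence breaks the prediction, and its parts then share 1 promoter and 1 transcript. Tandem duplication leaves copies side by side, which can keep similar promoters. Most nuclear genes of plants have a promoter of their own, so closeness alone does not make neighbours share a transcript. The deposited files hold no gene names or products and no sequence, so neither the function of a member nor the likeness of 2 members could be read, and leaf marker genes could not be checked.

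The libraries held 5468567 to 18175384 counted fragments, and 27762 gene models had at least 1 fragment in some library. Levels are given as CPM, fragments scaled to a common library size with TMM factors, and 3 fragments correspond to 0.14 to 0.643 CPM per library. These floors cover counting error only. The Wilson intervals given further on are computed from counts of pairs and not of fragments. The sum of 5 abundant gene models, which earlier work on these libraries had picked out, was 8.12%, 0.299% and 6.92% of the total in Sam-07 replicates 1, 2 and 3. In Palau 10 replicates 1, 2 and 3 it was 1.72%, 0.731% and 2.42%, and in Niue replicates 2, 3 and 4 it was 0.888%, 12.4% and 30.9%. The ranges of the cultivars overlap. In bulk leaf RNA, fewer cells of a type and less RNA per cell cannot be told apart.

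The close pairs were short gene models with very short gaps. The gap had a median of 262 bp with quartiles of 65 and 598 bp, 482 pairs were at most 50 bp apart, and 23 had a gap of 0 bp. On opposite strands 47 pairs were at most 50 bp apart. Introns inside the gene models had a median of 229 bp with a lower quartile of 95 bp, and 75.2% of them were at most 1000 bp long. The gap limit of 1000 bp thus lies within the range of most intron lengths. Of the introns, 3.36% were under 50 bp, and 482 of the 2285 gaps were at most 50 bp. The gaps were limited to 1000 bp by the choice of pairs and the introns were not, so these shares cannot be compared directly. Members had a median summed exon length of 678 bp, against 885 bp in all other gene models, and a median of 3 exons in both. Of the members, 9.99% had a single exon, against 6.5% of the others. The pairs were spread over 1649 of 11589 scaffolds, 1146 on the plus strand and 1139 on the minus strand.

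The models joined by close gaps formed 2078 runs, of which 1900 held 2 gene models, 153 held 3 and 25 held 4 or more. The longest held 5, and there were 4 of these. The 5 members of the run Taro_015187 to Taro_015191 (TARO_scaffold_000650, 108457 to 113357, minus strand) had 0 fragments in all libraries. Taro_018526 (TARO_scaffold_000863, 357356 to 364510, plus strand) had 1708 fragments over the 9 libraries, between 66 and 374 in each, and the 4 members that follow it in the run, Taro_018527 to Taro_018530, had 0. The other 2 runs, Taro_015292 to Taro_015296 and Taro_034814 to Taro_034818, had at most 18 fragments in any member. Length of a run was thus not accompanied by leaf RNA in all of its members.

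The length of the shortest gaps was often a multiple of 3, the length of a codon. Of the 482 close pairs with a gap of at most 50 bp, 236 had such a gap, or 49.0% (95% Wilson interval 44.5% to 53.4%). These 236 include the 23 pairs with a gap of 0 bp, which raises this share. The share was 40.3% (36.5% to 44.1%) of 631 pairs at 51 to 250 bp and 34.0% (31.3% to 36.7%) of 1172 pairs at 251 to 1000 bp. Same-strand pairs at 5001 to 10000 bp gave 33.5% (32.0% to 35.0%) of 3783. Opposite-strand pairs gave 34.0% (22.2% to 48.3%) of 47 at most 50 bp apart and 37.2% (31.7% to 43.1%) of 274 at 51 to 250 bp. In both of these gap ranges the same-strand and opposite-strand intervals overlap. Gene models whose own summed exon length is a multiple of 3 were also more frequent among members, at 73.2%, against 61.0% of the other gene models. Of single-exon gene models, 100% had such a length, and these made up 9.99% of members and 6.5% of the others. These files give exons without marking coding sequence, so a reading frame across the gap could not be read.

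Joint expression was the first question. Most members were not detected in leaves: in 1435 of the 2285 close pairs (62.8%) neither member reached a mean of 1 CPM, and in 910 (39.8%) neither had a fragment in any library. Both members reached 1 CPM in 424 close pairs (18.6%) and 1 member alone in 426 (18.6%). Among far pairs, both reached 1 CPM in 2704 (16.6%), 1 alone in 4975 (30.6%) and neither in 8588 (52.8%). Of the pairs with at least 1 detected member, 49.9% of the close and 35.2% of the far pairs thus had both.

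Counted in each library, this joint detection was 48.1%, 51.3% and 49.5% in close pairs in Sam-07 replicates 1, 2 and 3. In Palau 10 replicates 1, 2 and 3 it was 48.9%, 50.7% and 49.1%, and in Niue replicates 2, 3 and 4 it was 49.6%, 50.5% and 50.5%. In far pairs it lay between 33.6% and 35.6%, below every close value. The means were 49.8% ± 1.03 in close and 34.4% ± 0.593 in far pairs (SD, n = 9 libraries), higher in close pairs in 9 of 9 libraries (difference 15.4 percentage points, exact sign-flip permutation p = 0.0039, two-sided, adjusted p = 0.0052 over 4 measures). A p of 0.0039 is the smallest that the exact test allows with 9 libraries. The same pairs enter in every library, so the test says how steady the difference was over the libraries and not over the pairs. Joint detection was not greater in close same-strand pairs than in neighbours at most 1000 bp apart on opposite strands, which had 55.7% ± 1.12, higher than the same-strand pairs in 9 of 9 libraries (exact sign-flip permutation p = 0.0039). Same-strand pairs 1001 to 5000 bp apart had 47.5% ± 0.69.

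Correlation across the 9 libraries was described on log2(CPM + 1) for pairs with both members at a mean of at least 5 CPM. These were 231 close pairs (10.1% of all) and 1665 far pairs (10.2%), so what follows concerns about 1 in 10 of the pairs. The median Pearson r within a pair was 0.537 in close pairs, with quartiles of -0.0711 and 0.857, against 0.215 in far pairs, with quartiles of -0.236 and 0.616. Opposite-strand pairs at most 1000 bp apart had a median of -0.0152. An r over 0.9 was found in 45 close pairs (19.5%), in 98 far pairs (5.89%) and in 4 close opposite-strand pairs (1.28%). An r below 0 was found in 67 close pairs (29.0%) and in 621 far pairs (37.3%).

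**Figure D1:**
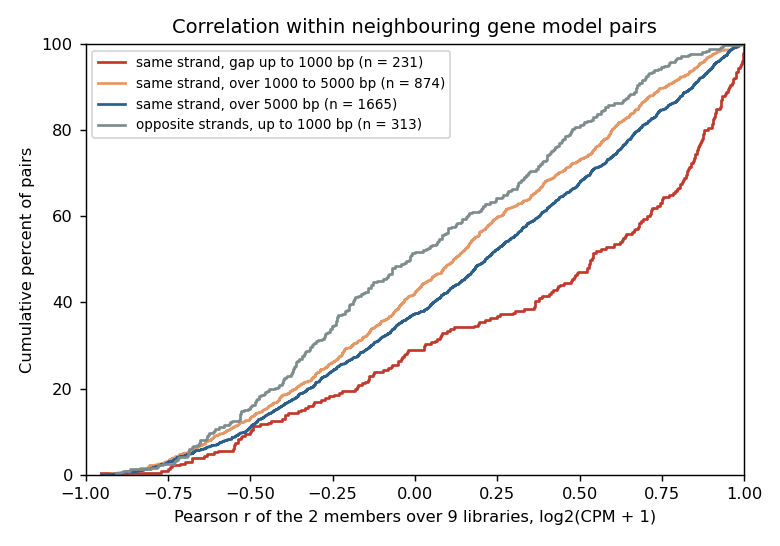
Cumulative percent of adjacent gene model pairs (y axis) up to a given Pearson r of their members' log2(CPM + 1) over 9 libraries (x axis), for pairs with both members at 5 CPM or more, by strand and gap. The curve of the 231 close same-strand pairs lies to the right of the 1665 far pairs over nearly the whole range, with medians of 0.537 and 0.215.

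Each correlation was also tested by exact permutation of the libraries, with Benjamini-Hochberg adjustment over all 4834 adjacent pairs at 5 CPM. A positive correlation was called in 53 close pairs (22.9%), against 130 far pairs (7.81%) and a background of 5.67% of all adjacent pairs tested. A negative one was called in 1 close pair and 10 far pairs, against a background of 0.745%. Subtracting the mean of each cultivar gave a median r of 0.584 in close and 0.235 in far pairs, so the pairs also moved together among libraries of the same cultivar. Of the 45 close pairs with an r over 0.9, 28 stayed over 0.9 and 42 over 0.8 whichever 1 library was left out. Of the 98 far pairs, 43 stayed over 0.9 and 80 over 0.8.

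The 5 abundant gene models moved with part of this. In 8 of the 45 close pairs with an r over 0.9, both members had an r over 0.8 with their sum, and in 36 neither had an r beyond 0.8 in either direction. In far pairs with an r over 0.9 these were 2 and 96 of 98. Among the 220 close pairs in which neither member had such an r, the median r within a pair was 0.526, against 0.214 in 1654 far pairs. With the residual of each member on that sum, the median r was 0.596 in close and 0.234 in far pairs. The shared deviation of a library, described further on, was lower on these residuals, at 0.416 in close and 0.152 in far pairs, a difference of 0.264 in place of 0.449.

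Gap length separated the close pairs. The median r of same-strand pairs was 0.824 at gaps of 0 to 50 bp (n = 31), 0.879 at 51 to 100 bp (n = 13), 0.821 at 101 to 250 bp (n = 26) and 0.682 at 251 to 500 bp (n = 42). It was 0.195 at 501 to 1000 bp (n = 119), 0.101 at 1001 to 2000 bp (n = 282) and 0.128 at 2001 to 5000 bp (n = 592). The medians were thus high at gaps up to 500 bp, where 33 of 112 pairs (29.5%) had an r over 0.9, and beyond that they were near those of far pairs. At 501 to 1000 bp 12 of 119 pairs (10.1%) still had an r over 0.9. Just inside the limit of 1000 bp, at 901 to 1000 bp, the median was 0.0748 (n = 39), and just outside, at 1001 to 1100 bp, 0.35 (n = 23). On opposite strands the medians stayed between -0.184 and 0.375 at every gap.

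**Figure D2:**
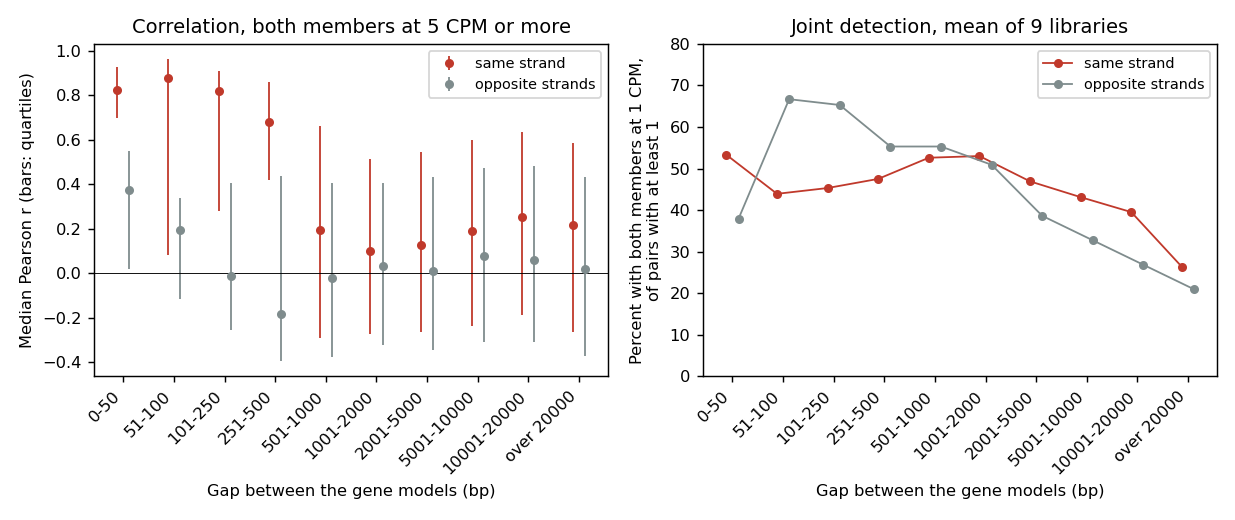
Left, median Pearson r of the members over 9 libraries (y axis, bars are quartiles over pairs) by gap in bp (x axis) for pairs on the same strand and on opposite strands; right, percent of pairs with both members at 1 CPM or more among pairs with at least 1. The same-strand medians are between 0.682 and 0.879 up to 500 bp and 0.195 at 501 to 1000 bp, while joint detection on the same strand is 47.5% at 251 to 500 bp and 52.6% at 501 to 1000 bp.

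The median correlation was higher in close pairs at higher levels. With both members at 20 CPM or more the median r was 0.581 in 83 close and 0.185 in 598 far pairs. At 50 CPM or more it was 0.969 in 23 close and 0.238 in 145 far pairs, and 13 of the 23 close pairs (56.5%) had an r over 0.9. The limit of 50 CPM and the split at 500 bp inside the close pairs were looked at after the values were known.

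Across pairs, the shared deviation of a library is the correlation between the 2 members' departures from their own means over the 9 libraries. In close pairs it was 0.589, 0.73 and 0.585 in Sam-07 replicates 1, 2 and 3. The Palau 10 replicates 1, 2 and 3 had 0.752, 0.649 and 0.425, and the Niue replicates 2, 3 and 4 had 0.397, 0.673 and 0.729. In far pairs it lay between 0.141 and 0.197, so the lowest close value was above the highest far value. The mean was 0.614 ± 0.13 in close and 0.165 ± 0.0214 in far pairs (SD, n = 9 libraries), higher in close pairs in 9 of 9 libraries (difference 0.449, exact sign-flip permutation p = 0.0039, adjusted p = 0.0052). At gaps of 501 to 1000 bp it was 0.474 ± 0.185, above far pairs in 9 of 9 libraries (difference 0.309, exact sign-flip permutation p = 0.0039), and up to 500 bp 0.707 ± 0.123. Opposite-strand pairs at most 1000 bp apart had 0.0555 ± 0.0627, below the close same-strand pairs in 9 of 9 libraries (exact permutation p = 0.0039). The departures are taken from means over the same 9 libraries, and the same pairs enter in each. The 9 values are thus not independent of each other, and these p-values describe steadiness over the libraries only.

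**Figure D3:**
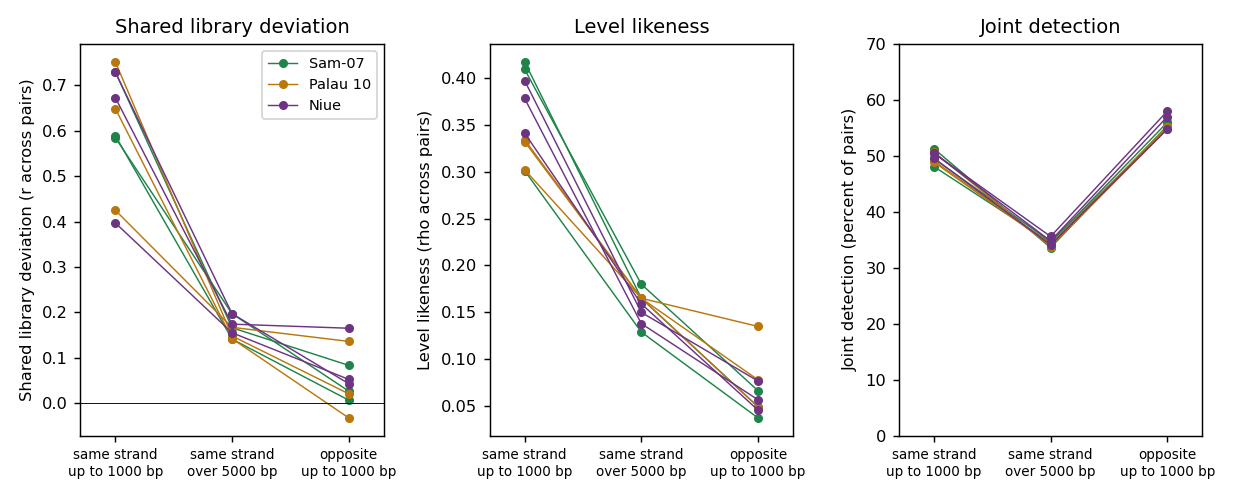
Shared library deviation (correlation across pairs, left), level likeness (Spearman rho across pairs, middle) and joint detection (percent of pairs with both members at 1 CPM among those with at least 1, right) for same-strand pairs up to 1000 bp apart, same-strand pairs over 5000 bp apart and opposite-strand pairs up to 1000 bp apart; each line is 1 of the 9 libraries, coloured by cultivar. All 9 lines fall between the close and the far same-strand pairs in each panel, and joint detection is highest in the opposite-strand pairs.

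The levels of the 2 members were next compared per kb of summed exon length. Their median ratio, higher over lower member, was 2.09-fold in close pairs and 2.51-fold in far pairs. In 107 close pairs (46.3%) the members lay within 2-fold of each other and in 24 (10.4%) over 8-fold apart, against 631 (37.9%) and 241 (14.5%) of far pairs. Both an r over 0.9 and a level within 2-fold were found in 26 close pairs (11.3%), 54 far pairs (3.24%) and 1 close opposite-strand pair. The Spearman correlation of the members' levels across pairs was 0.357 ± 0.0447 in close and 0.157 ± 0.0156 in far pairs (SD, n = 9 libraries), higher in close pairs in 9 of 9 libraries (exact sign-flip permutation p = 0.0039, adjusted p = 0.0052). This likeness of level rested on the shorter gaps: it was 0.517 ± 0.052 at gaps up to 500 bp and 0.198 ± 0.0502 at 501 to 1000 bp, and the pairs at 501 to 1000 bp differed from far pairs by 0.0405 (higher in 7 of 9 libraries, exact sign-flip permutation p = 0.059).

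**Figure D4:**
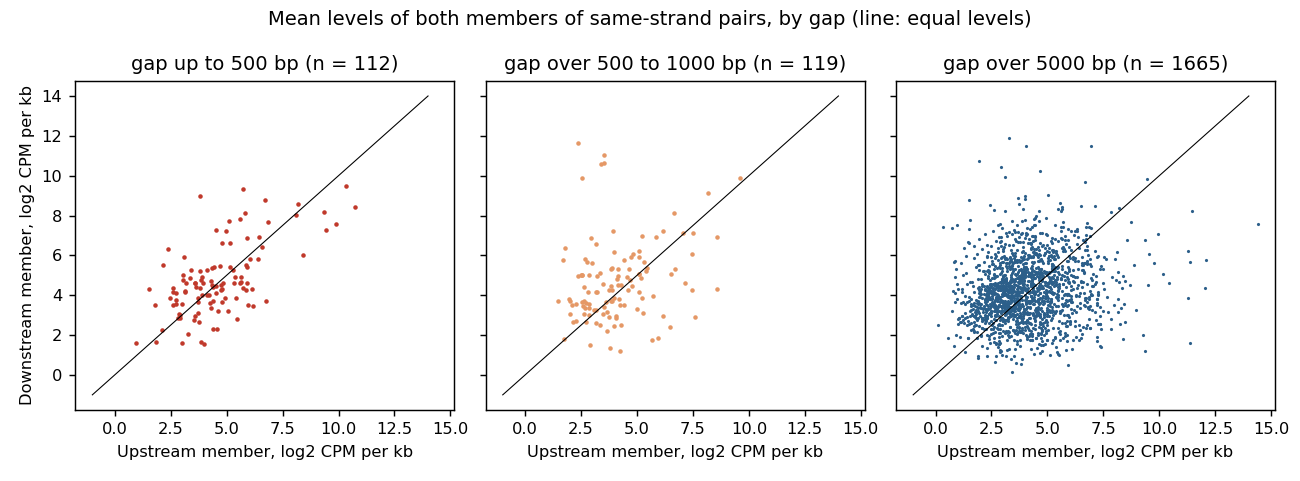
Mean level of the downstream member (y axis) against the upstream member (x axis), both in log2 CPM per kb of summed exon length, for same-strand pairs with both members at 5 CPM or more, by gap; each point is 1 pair and the line marks equal levels. In 56 of the 112 pairs up to 500 bp apart the members are within 2-fold of each other, as are 51 of 119 pairs at 501 to 1000 bp.

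Position within the pair was described last. The member lying downstream in the direction of transcription was the higher one per kb in 130 close pairs and the upstream one in 101. In far pairs these counts were 933 and 732, a like share. In same-strand pairs with gaps between the close and far limits they were 438 and 436, nearly even. The median log2 ratio, downstream over upstream, was 0.262 ± 0.0868 in close and 0.297 ± 0.0306 in far pairs (SD, n = 9 libraries). It was higher in close than in far pairs in 4 of 9 libraries (difference -0.0352, exact sign-flip permutation p = 0.29, adjusted p = 0.29). In the pairs between the limits it was 0.0437 ± 0.0607, below the close pairs in each library, a difference that was not tested. The position of close pairs was thus like that of far pairs but not like that of pairs between the limits. Pairs on opposite strands share no direction of transcription, so they were not compared. At gaps up to 500 bp it was 0.128 ± 0.0702, against 0.37 ± 0.0693 at 501 to 1000 bp, lower at the shorter gaps in 9 of 9 libraries (exact sign-flip permutation p = 0.0039, adjusted p = 0.0052 over 4 measures, a split chosen after seeing the data). None of the 4 measures differed among the cultivars within close pairs beyond the spread of the libraries (exact permutation over 280 assignments, p between 0.28 and 0.96, adjusted p = 0.96 for each).

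Among pairs with both members at 20 CPM or more, the 4 with the highest r are described first, and since they were chosen by that r their values are a description. Taro_007077 and Taro_007076 lie 8 bp apart on the minus strand of TARO_scaffold_000220 (352103 to 352472 and 351011 to 352094). Taro_007077 had 471, 23.6 and 502 CPM in Sam-07 replicates 1, 2 and 3, 26.1, 39.3 and 332 CPM in Palau 10 replicates 1, 2 and 3, and 105, 1195 and 1580 CPM in Niue replicates 2, 3 and 4. Taro_007076 had 767, 40.6 and 730.1 CPM in Sam-07, 44.7, 60.4 and 527 CPM in Palau 10, and 158, 1722 and 2334 CPM in Niue, in the same order of replicates. Both were lowest in Sam-07 replicate 2 and Palau 10 replicates 1 and 2 and highest in Niue replicate 4, and the cultivars overlap. Their r was 0.9996 and Spearman's rho 0.983 (adjusted exact permutation p = 0.0022 and 0.0077), and r was 0.999 without the 2 libraries farthest from the median. Per kb the upstream member was 1.81-fold higher, and the log2 ratio of the members stayed between -0.905 and -0.675 in the 9 libraries while their levels moved by more than an order of magnitude.

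The next 3 of these pairs were also lowest in Sam-07 replicate 2 and Palau 10 replicates 1 and 2. Taro_004452 and Taro_004451 (TARO_scaffold_000120, minus strand, gap 42 bp, r 0.9988) ranged from 0.249 to 90.8 CPM and from 0.499 to 107 CPM, with equal means per kb (1.0-fold). Taro_000495 and Taro_000494 (TARO_scaffold_000009, minus strand, gap 180 bp, r 0.9982) ranged from 13.2 to 429 CPM and from 4.21 to 127 CPM, the upstream member 4.51-fold higher per kb. Taro_057027 and Taro_057028 (TARO_scaffold_018858, plus strand, gap 526 bp, r 0.9978) ranged from 7.02 to 426 CPM and from 17.6 to 897 CPM, the downstream member 1.24-fold higher per kb. Taro_000496, 1 of the 5 abundant gene models, lies 2658 bp from Taro_000495 on the opposite strand. With its far neighbour Taro_000497, 17246 bp away on the same strand, Taro_000496 had an r of 0.9828, so such an r was not confined to close pairs. None of the 8 members differed among the cultivars in edgeR's quasi-likelihood test (adjusted p between 0.53 and 0.77).

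Other close pairs at high levels had other patterns, which differed from pair to pair. Taro_026268 and Taro_026267 (TARO_scaffold_001582, minus strand, gap 711 bp, r 0.9967, rho 0.917) had 34.6 and 19.4 CPM in Palau 10 replicate 3, far below the other 8 libraries, which had 257 to 442 CPM and 124 to 202 CPM. Without the 2 libraries farthest from the median, Palau 10 replicate 3 among them, r was 0.943. Taro_037037 and Taro_037036 (TARO_scaffold_003181, minus strand, gap 22 bp) ranged from 116 to 299 CPM and from 107 to 286 CPM, both lowest in Sam-07 replicate 2 and highest in Sam-07 replicate 3. Their r was 0.966 (adjusted exact permutation p = 0.012) and their levels per kb were within 1.04-fold, though a member of this pair also overlaps another gene model. Taro_006463 and Taro_006462 (TARO_scaffold_000192, gap 276 bp), also among the highest, had an r of 0.7055, which was 0.0766 without the 2 farthest libraries and so rests on Palau 10 replicate 3 and Sam-07 replicate 3.

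Among pairs with both members at 20 CPM or more, the 3 with the shortest gaps differed from one another. Taro_015616 and Taro_015617 abut without a gap on the plus strand of TARO_scaffold_000675, with 14 exons from 341608 to 381315 and 6 exons from 381316 to 405046. The upstream model had 64.0, 18.1 and 99.1 CPM in Sam-07 replicates 1, 2 and 3, 30.8, 21.8 and 49.2 CPM in Palau 10 replicates 1, 2 and 3, and 19.0, 19.8 and 28.1 CPM in Niue replicates 2, 3 and 4. The downstream one had 41.3, 9.74 and 63.6 CPM in Sam-07, 20.3, 13.6 and 23.8 CPM in Palau 10, and 13.1, 15.1 and 16.3 CPM in Niue. Both were highest in Sam-07 replicates 3 and 1 and lowest in Sam-07 replicate 2, with an r of 0.9751 (adjusted exact permutation p = 0.0022) levels per kb within 1.19-fold, and an r of 0.907 without Sam-07 replicates 1 and 3. Taro_030884 and Taro_030885 (TARO_scaffold_002151, gap 4 bp) were within 1.35-fold per kb and had an r of 0.8235 and a rho of 0.983, all values between 14.5 and 34.9 CPM. Taro_010655 and Taro_010656 (TARO_scaffold_000388, gap 6 bp) went apart, with an r of -0.2861 (adjusted exact permutation p = 0.72) and a downstream level 15.5-fold higher per kb.

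**Figure D5:**
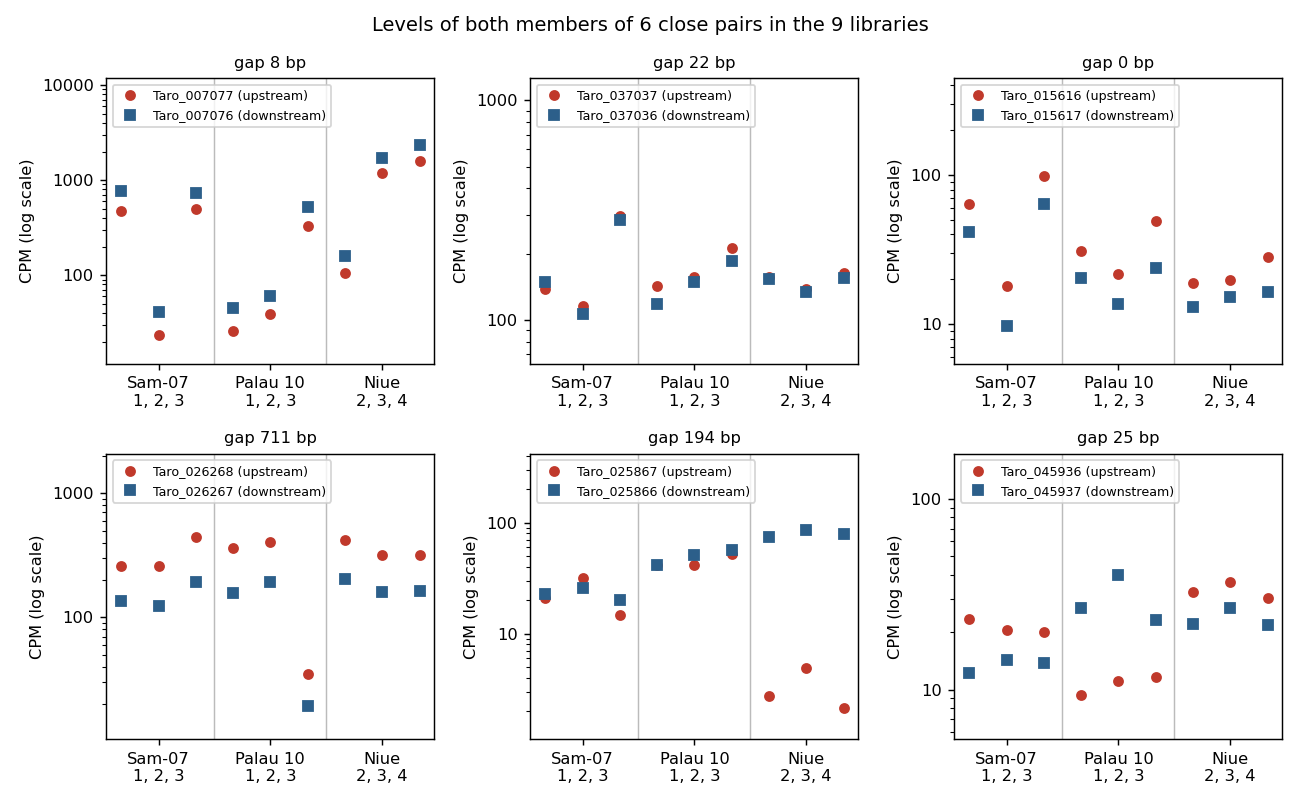
CPM on a log scale (y axis) of the upstream (circles) and downstream member (squares) of 6 close pairs in the 9 libraries (x axis, replicates in order within each cultivar); points are single libraries. In Taro_007077 with Taro_007076, Taro_037037 with Taro_037036, Taro_015616 with Taro_015617 and Taro_026268 with Taro_026267 the members keep their distance in every library, while in Taro_025867 and Taro_025866 the members lie far apart in Niue alone and in Taro_045936 and Taro_045937 they change order in Palau 10.

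Some close pairs moved against each other or stood at very unlike levels. Taro_024961 and Taro_024962 (TARO_scaffold_001438, plus strand, gap 993 bp) were the close pair with a called negative correlation, with an r of -0.9541 and a rho of -0.933 (adjusted exact permutation p = 0.0064 and 0.038), and an r of -0.873 without the 2 farthest libraries. The first lay between 161 and 259 CPM and the second between 28.9 and 60 CPM, and Palau 10 replicate 3 was lowest for the first and highest for the second. The negative r of Taro_040202 with Taro_040201 (-0.7488), Taro_035903 with Taro_035904 (-0.7377) and Taro_048754 with Taro_048753 (-0.7122) became 0.0162, 0.305 and 0.551 without the 2 farthest libraries, Palau 10 replicate 3 among them each time. Taro_035903 had 201 CPM in that library and 1.1 to 3.93 CPM in the other 8, while Taro_035904, 14 bp downstream, had 18.7 CPM there and 26.4 to 39.2 CPM elsewhere. The largest differences in level per kb were 624-fold between Taro_040430 and Taro_040431 (gap 685 bp), 181-fold between Taro_013212 and Taro_013213 (gap 923 bp) and 167-fold between Taro_051350 and Taro_051349 (gap 541 bp). The downstream member was the higher one in all 3, and their gaps were over 500 bp. A member of the last of these pairs also overlaps another gene model.

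Differences between the cultivars were then compared within pairs. Of the 1371 members that passed the count filter of the test, 42 (3.06%) differed among the cultivars in edgeR's quasi-likelihood test at an adjusted p under 0.05, against 2.72% of all 18865 gene models tested. The members' share was thus near the background. Palau 10 and Niue differed in 34 members (2.48%, background 1.81%), 13 higher (background 0.625%) and 21 lower (background 1.18%) in Palau 10. Sam-07 and Niue differed in 16 (1.17%, background 1.22%), 7 higher (background 0.461%) and 9 lower (background 0.758%) in Sam-07. Sam-07 and Palau 10 differed in 24 (1.75%, background 1.73%), 14 higher (background 0.848%) and 10 lower (background 0.885%) in Sam-07. The 3 comparisons share libraries and are not independent of each other.

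In edgeR's quasi-likelihood test a called difference seldom extended to the neighbour, in close or in far pairs. In 513 close pairs both members could be tested, 20 had at least 1 called member and 3 had both (15% of the 20), against 16 of 139 (11.5%) among 3001 far pairs. The count of 3 became 1 when any 1 library other than Palau 10 replicate 3 was left out, and 3 without that library. With DESeq2 as the test, both members were called in 12 of 39 close pairs (30.8%) and 36 of 290 far pairs (12.4%). Among the 231 close pairs at 5 CPM, the fitted log2 fold changes of the members had the same sign in 149 (64.5%) for Palau 10 over Niue, 156 (67.5%) for Sam-07 over Niue and 151 (65.4%) for Sam-07 over Palau 10. In far pairs these shares were 57.8%, 56.6% and 59.4% of 1664. The members' log2 fold changes differed by a median of 0.255, 0.199 and 0.234 in close pairs, against 0.364, 0.333 and 0.33 in far pairs, in the same order of comparisons. Across pairs, the Pearson r of the members' log2 fold changes was 0.567, 0.394 and 0.465 in close pairs. In far pairs it was 0.156, 0.152 and 0.142. Some members had 0 fragments in all 3 libraries of 1 cultivar and 1 CPM or more in all 3 libraries of another. No close pair had 2 such members for the same cultivar. At least 1 such member was found in 4 of 2285 close pairs for Sam-07, 8 for Palau 10 and 5 for Niue. Among 16267 far pairs, 47, 52 and 37 had at least 1 such member and 2, 1 and 0 had both, in the same order of cultivars.

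Taro_029022 and Taro_029023 were both without a fragment in Palau 10, though Taro_029023 was under 1 CPM in some libraries of each of the other cultivars and the pair is therefore not in that count. They lie 64 bp apart on the plus strand of TARO_scaffold_001908, from 2325 to 2519 with 1 exon and from 2584 to 3527 with 2 exons. Taro_029022 had 2.99, 5.34 and 2.79 CPM in Sam-07 replicates 1, 2 and 3, 0 fragments in each Palau 10 library, and 5.82, 3.58 and 4.72 CPM in Niue replicates 2, 3 and 4. Taro_029023 had 0.515, 0.937 and 1.65 CPM in Sam-07, 0 fragments in each Palau 10 library, and 0.776, 1.14 and 0.858 CPM in Niue. Against the floor of 3 fragments over the 3 Palau 10 libraries, Palau 10 was at least 72.25-fold lower than Niue for Taro_029022 and at least 14.19-fold lower for Taro_029023. The adjusted p for any difference was 0.0034 and 0.029 in edgeR's quasi-likelihood test. For Taro_029023 the adjusted p of Sam-07 over Palau 10 was 0.022 and lay between 0.054 and 0.075 without any 1 of the 3 Niue libraries, Palau 10 replicate 1 or 2, or Sam-07 replicate 2 or 3.

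The members of Taro_015319 and Taro_015318 (TARO_scaffold_000656, minus strand, gap 61 bp) were both called, in different comparisons. Taro_015319 had 1.13, 1.45 and 1.02 CPM in Sam-07 replicates 1, 2 and 3, 0 fragments in Palau 10, and 3 fragments over the Niue libraries, all in replicate 2. Taro_015318 had 2.47, 2.58 and 1.27 CPM in Sam-07, 0.935, 1.67 and 1.2 CPM in Palau 10 replicates 1, 2 and 3, and 1 fragment over the Niue libraries. Sam-07 was the highest cultivar for both, but in Palau 10 the downstream model alone was detected. For Taro_015319 the adjusted p in edgeR's quasi-likelihood test was 0.034 for Sam-07 over Palau 10 (at least 18.43-fold) and 0.21 for Sam-07 over Niue, and for Taro_015318 it was 0.01 for Sam-07 over Niue and 0.68 for Sam-07 over Palau 10. The call for Taro_015319 was lost without any 1 of the 9 libraries (adjusted p 0.053 to 0.12), and that for Taro_015318 without Niue replicate 2, 3 or 4 (0.054 to 0.068).

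The third such pair went in opposite directions relative to Niue. Taro_025867 (28499 to 31251, 6 exons) and Taro_025866 (13085 to 28304, 20 exons) lie 194 bp apart on the minus strand of TARO_scaffold_001534, and Taro_025868 (31301 to 43816, 15 exons) lies 49 bp upstream of them, so the 3 form a run. Taro_025867 had 21.1, 31.9 and 14.6 CPM in Sam-07 replicates 1, 2 and 3, 41.2, 41.6 and 52.5 CPM in Palau 10 replicates 1, 2 and 3, and 2.72, 4.88 and 2.14 CPM in Niue replicates 2, 3 and 4. Taro_025866 had 22.6, 25.8 and 19.9 CPM in Sam-07, 41.5, 51 and 56.1 CPM in Palau 10, and 73.8, 86.0 and 79.1 CPM in Niue. The cultivars overlap for neither model, and Niue was the lowest for the first and the highest for the second. Taro_025867 rose by 3.79 ± 0.40 (log2, SE) in Palau 10 over Niue (adjusted p = 0.0025, edgeR's quasi-likelihood test) and by 2.80 ± 0.39 in Sam-07 over Niue (adjusted p = 0.011). Taro_025866 fell by 1.81 ± 0.20 in Sam-07 relative to Niue (adjusted p = 0.0041) and by 1.12 ± 0.20 relative to Palau 10 (adjusted p = 0.025). For Taro_025867, Sam-07 over Palau 10 had the same sign, at -1.0 ± 0.35, without passing that test (adjusted p = 0.33). Within cultivars the r of these 2 members was 0.745. Taro_025868 had 6.6 to 12.8 CPM in Sam-07, 17.8 to 31.7 CPM in Palau 10 and 6.5 to 10.9 CPM in Niue and did not pass the test (adjusted p = 0.14 for any difference).

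Parts of 1 transcript would keep 1 ratio of fragments only if the transcript and its counting were alike in every cultivar. Each pair was tested for a ratio that differs, with the counts of both members in 1 edgeR fit. Fragments that map to several places or span both members were left out of the counts, and what made a ratio differ was not tested. The ratio differed in 13 of 513 close pairs (2.53%) at an adjusted p under 0.05, against 86 of 3001 far pairs (2.87%) and a background of 2.59% of 8558 adjacent pairs. At an unadjusted p under 0.05 it differed in 44 close pairs (8.58%) and 355 far pairs (11.8%). A ratio that did not pass the test is not shown to be constant. Without Niue replicate 4 the 13 became 6, without Palau 10 replicate 1 they became 7, and on leaving out either Sam-07 replicate 2 or Palau 10 replicate 2 the count was 8.

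Of the 13, 6 had both members at 5 CPM or more. Taro_025867 and Taro_025866 led them (adjusted p = 0.00098), with a fitted difference in the log2 ratio, downstream over upstream, of -4.54 for Palau 10 minus Niue and -4.6 for Sam-07 minus Niue. The ratio of Taro_025868 and Taro_025867 differed too (adjusted p = 0.027). Taro_045936 and Taro_045937 lie 25 bp apart on the plus strand of TARO_scaffold_005531 (21747 to 28500 and 28526 to 55936), and their ratio had an adjusted p of 0.01. Taro_045936 had 23.4, 20.5 and 20 CPM in Sam-07 replicates 1, 2 and 3, 9.41, 11.1 and 11.6 CPM in Palau 10 replicates 1, 2 and 3, and 32.5, 36.6 and 30.2 CPM in Niue replicates 2, 3 and 4. Taro_045937 had 12.2, 14.3 and 13.7 CPM in Sam-07, 26.9, 40.0 and 23.2 CPM in Palau 10, and 22.1, 26.7 and 21.7 CPM in Niue. Palau 10 was the lowest cultivar for the upstream model without overlap, and Sam-07 was the lowest for the downstream model without overlap.

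Taro_045936 fell by 1.63 ± 0.19 (log2, SE) in Palau 10 relative to Niue (adjusted p = 0.0036, edgeR's quasi-likelihood test), whereas Taro_045937 did not pass the test for any difference (adjusted p = 0.09). The other 3 pairs were Taro_037091 with Taro_037090 (gap 491 bp, adjusted p = 0.0037), Taro_014963 with Taro_014964 (gap 221 bp, adjusted p = 0.006) and Taro_049773 with Taro_049774 (gap 470 bp, adjusted p = 0.015). Taro_014963 and Taro_014964 had an r of 0.998 within cultivars, and the fitted difference in their log2 ratio, downstream over upstream, was -2.2 for Palau 10 minus Niue and -2.09 for Sam-07 minus Niue. Members of this pair thus moved together from library to library at a ratio that differed between cultivars. Taro_037090 had 0.0623, 0.267 and 0.863 CPM in Palau 10 replicates 1, 2 and 3, against 34.0, 1.95 and 15.4 CPM in Niue replicates 2, 3 and 4, while Taro_037091 had 1.81, 5.15 and 6.17 CPM in Palau 10 and 23.8, 1.95 and 10.1 CPM in Niue.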

How the data were processed

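The authors counted fragments (read pairs) over the exons of each gene model with featureCounts 1.4.6-p4, per the file headers. The recorded command set no strand and left out fragments that map to several places or overlap more than 1 gene model. RNA of the other strand thus counts for a gene model. A fragment that spans both members of a pair therefore counts for neither, and near-identical neighbours are undercounted. Per the submitters' processing notes, STAR (given as 3.5.0a), Trimmomatic 0.33, bcl2fastq 1.8.4 and Subread 1.4.6 were used. Beyond its scaffold names, the genome build was not given in the sources used. Coordinates start at 1, and gaps lie between annotated exons.

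The counts were used as deposited. The main test was the quasi-likelihood test of edgeR 4.0.16 in R 4.3.3 (glmQLFit and glmQLFTest, two-sided, TMM, filterByExpr with a minimum count of 10 and a minimum total of 15), with all 9 libraries fitted by cultivar and Benjamini-Hochberg adjustment. Pair ratios were tested in edgeR on 18 columns, with library, member and member by cultivar as terms. SEs are approximate, from the fold change and its F statistic. Folds against a cultivar with 0 fragments use 3 fragments over its 3 libraries. Correlations and ratios per library use log2(CPM + 1), which understates changes of low gene models; exact permutations covered 362880 orders of the libraries. DESeq2 1.42.0 and limma 3.58.1 were alternatives. The fits and measures were tested on simulated data.

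The pairs and measures were chosen with earlier results of these data known. Named pairs were taken by rule: both members called (up to 6), the 4 highest and 4 lowest r and the 3 shortest gaps at 20 CPM, the 4 highest levels, up to 6 called ratios and the 3 largest level differences at 5 CPM, and the longest runs. Replicates of every cultivar differed by more than counting noise, so none was treated as a library deposited again. This does not show that they came from separate plants.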

Additional observations from a re-analysis of the deposited data

How the results depend on the processing

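Higher shared deviation, level likeness and joint detection in close than in far pairs kept their direction under each setting tried against far pairs, and their exact permutation p under 0.05 except for level likeness at 501 to 1000 bp (0.0405, p = 0.059), with differences of 0.416 to 0.483, 0.172 to 0.202 and 15.1 to 15.6 when 1 replicate was left out. The shared deviation difference was 0.264 on residuals of the 5 abundant gene models and 0.309 at 501 to 1000 bp, and the joint detection difference was 8.21 with detection at 5 CPM and 18.8 at 0.5 CPM (exact permutation p = 0.0039 each). Against opposite-strand pairs, joint detection reversed, at -5.91 percentage points. The downstream over upstream difference was -0.17 at gaps up to 500 bp, -0.159 at a limit of 1 CPM and -0.1 without dividing by length (exact permutation p = 0.0039 each), 0.0728 at 501 to 1000 bp (exact permutation p = 0.027), and -0.0602 to -0.000816 with 1 replicate left out. The median r of close pairs, 0.537, was 0.792 up to 500 bp, 0.195 at 501 to 1000 bp, 0.486 with at least 2 exons in both members, 0.615 with library size only (0.329 in far pairs), 0.486 at 1 CPM, 0.581 at 20 CPM, 0.584 within cultivars, 0.596 as a residual on the 5 abundant gene models, and 0.469 to 0.589 with 1 replicate left out (lowest without Palau 10 replicate 3). The causes were not tested.

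Counts of calls moved with the test. Gene models with any difference (513), with Palau 10 over Niue (341), Sam-07 over Niue (230) and Sam-07 over Palau 10 (327), close members (42) and close pairs with both members called (3) became 1133, 717, 582, 739, 85 and 12 with DESeq2, and 127, 90, 66, 82, 9 and 1 with at least 10 CPM in 3 libraries. Leaving out 1 replicate gave 273 to 662, 156 to 423, 91 to 341, 156 to 402, 17 to 45 and 1 to 3. With DESeq2, 12 of 39 close pairs with a called member (30.8%) had both called, against 36 of 290 far pairs (12.4%). With a block for the replicate number, these counts were 25, 1, 9, 70, 2 and 0, and called ratios (edgeR) were 0 in all pairs and 0 in close pairs, with 661 and 25 at an unadjusted p under 0.05. The named calls then had adjusted p-values of 0.1 to 0.22. Deviations of the 7 same-numbered pairs of libraries had an r from -0.425 (Niue and Sam-07 replicates 3) to 0.45 (Palau 10 and Sam-07 replicates 2), so the numbers were not taken to pair the samples, since the r was not over 0.1 in each. Called ratios (222, of which 13 in close pairs) were 53 and 6 at 5 CPM, 214 and 10 with limma, and 120 to 265 and 6 to 12 with 1 replicate left out.

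Correlations and level ratios rest on 231 of 2285 pairs by the chosen limit of 5 CPM. The gap multiples, the split at 500 bp, the residual and the limit of 50 CPM were chosen after seeing the data.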
